A study of Xenopus tropicalis with 132 samples.

Results

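The Notch ligand genes dlc, dll1 and jag1 and the receptor gene notch1 were followed through animal caps and single explant cells of the frog Xenopus tropicalis. They were taken by gene symbol, and all 4 were found among the 26550 targets of the bulk RNA-seq tables and among the 26550 genes of the single-cell tables. The bulk libraries came from animal caps, the prospective ectoderm cut from the top of the blastula, at gastrula stage 10.5. The 8 groups of 2 libraries each were caps overexpressing mRNA of 1 factor (Lhx8, Otx2, Irx3, Eomes or Foxb1), caps with the pairs Irx3+Otx2 or Foxb1+Eomes, and a group named WI. The single-cell libraries, BL 1, BL 2, AC 1 and AC 2, held 25 cells each, and the series description speaks of dorsal marginal zone and animal cap explants. WI and BL are not spelled out in the sample labels, which also leave out the number of caps or embryos per library and the amount of mRNA. Nothing in them says that replicates came from separate clutches, so p-values measure the spread between these libraries, which may be technical.

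Notch is a receptor that is cut when a neighbouring cell presents a ligand, and the freed inner part enters the nucleus and switches on targets such as the hes repressor genes. Delta-type ligands (dll1, known in frogs as X-Delta-1, and dlc, also listed in RefSeq as delta-2) and the Jagged-type ligand jag1 sit in the membrane of the sending cell. In frog embryos Delta and Notch are known for spacing out primary neurons and multiciliated skin cells and for the segmentation of somitic mesoderm.

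Bulk depth lay between 3234618 and 9218401 estimated counts per library, and levels are given as CPM, counts scaled to library size. The injected genes matched the labels, with all libraries given a gene above all those not given it, for example foxb1 at 136 CPM or more against 17.8 CPM or less, and irx3 at 199.9 CPM or more against 10.995 CPM or less. The running numbers in the library names fall into 3 sets. The third set holds both Eomes libraries, both Otx2 libraries and Irx3+Otx2 replicate 2, and no WI library. In it dlc lay between 3.76 and 29.2 CPM and dll1 between 3.71 and 42.3 CPM. In the second set, which holds replicate 2 of Foxb1, Foxb1+Eomes, Irx3, Lhx8 and WI, dlc lay between 62.7 and 158.9 CPM and dll1 between 57.2 and 234.5 CPM. In comparisons with WI, Eomes and Otx2 are separated from the third set only through the 2 Irx3+Otx2 libraries, 1 of which is in the first set.

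The Delta-type genes varied far more across caps than jag1 or the receptor gene. The highest of the 16 libraries exceeded the lowest by 42.2-fold for dlc and by 63.2-fold for dll1, but by 2.96-fold for jag1 and 2.65-fold for notch1 in CPM. Per transcript length, as deposited TPM, the medians over the 16 libraries were 44.5 for notch1, 19.2 for dlc, 18.6 for dll1 and 11.5 for jag1. In bulk tissue, fewer cells making a transcript and less of it per cell cannot be told apart.

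Ordered by mean CPM, dlc ran Foxb1, Foxb1+Eomes, WI, Lhx8, Irx3, Eomes, Otx2 and Irx3+Otx2. In that order neighbouring groups lay apart between Lhx8 and Irx3 and between Eomes and Otx2, and overlapped elsewhere. For dll1 the order was Foxb1+Eomes, Lhx8, Foxb1, WI, Irx3, Eomes, Irx3+Otx2 and Otx2. There Foxb1+Eomes lay apart from Lhx8, Eomes from Irx3+Otx2, and Irx3+Otx2 from Otx2, and the other neighbours overlapped.

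**Figure D1:**
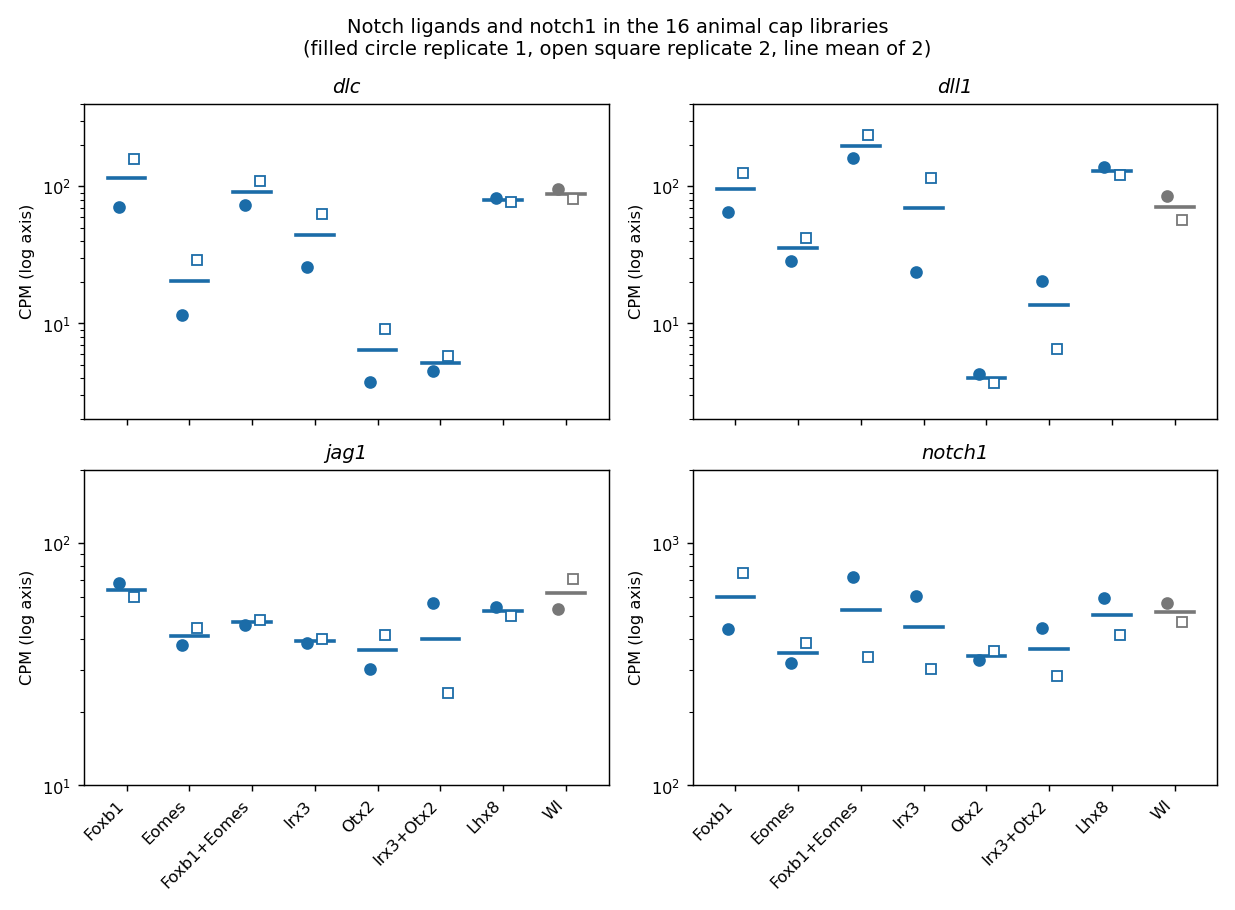
Normalised CPM (log axes, which differ between panels) of dlc, dll1, jag1 and notch1 in 2 libraries per group, with the mean of each group as a line. The Otx2 and Irx3+Otx2 libraries lie lowest for dlc, between 3.76 and 9.09 CPM, against 80.3 and 95.9 CPM in WI, while notch1 stays between 283 and 751 CPM in the 16 libraries.

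The only edgeR call among the 4 genes in the 13 bulk comparisons was the low dlc of Irx3+Otx2 caps against WI, while DESeq2 called 8 further changes of dlc and dll1. Of all genes, DESeq2 called 6.07% in Eomes, 3.5% in Otx2 and 2.06% in Irx3+Otx2 against WI. It called 2.25% in Foxb1+Eomes against Eomes and 2.38% in Irx3+Otx2 against Irx3. Expression of dlc was 4.52 and 5.82 CPM in the Irx3+Otx2 libraries, against 95.9 and 80.3 CPM in the WI libraries. The Irx3+Otx2 values rest on few reads, 33 and 40 counts of dlc, against 344 and 389 in the WI libraries. The log2 change was −4.09 with a standard error (SE) of 0.63 and a 95% interval of −5.46 to −2.71. This fall passed the edgeR quasi-likelihood test with an adjusted p of 0.0322 (Benjamini-Hochberg over 14176 genes). It was the 10th smallest p of that comparison, in which 18 genes (0.127%) were called, 12 of them higher (0.0847%) and 6 lower (0.0423%). Both Irx3+Otx2 libraries lay below both WI libraries for dlc, dll1 and notch1, as did 20.8% of all genes tested, and jag1 overlapped. Within the first set of library numbers, replicate 1 of Irx3+Otx2 lay below replicate 1 of WI by a log2 difference of −4.41. The call on dlc was lost when any of the 4 libraries was left out, with log2 changes between −4.27 and −3.92. It was also lost with the number set as a term, with an edgeR adjusted p of 0.155.

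In caps with Otx2 alone dlc was 3.76 and 9.09 CPM, against 95.9 and 80.3 CPM in WI caps, a log2 change of −3.75 (SE 0.62). For dll1 the Otx2 libraries had 4.28 and 3.71 CPM, against 85.0 and 57.2 CPM in the WI libraries, a log2 change of −4.15 (SE 0.74). Neither passed the edgeR test (adjusted p = 0.124 for both), although they were the 5th and 10th smallest p of the comparison. No gene was called there (0.0%), with 2358 genes (16.6%) at an unadjusted p under 0.05 and 496 (3.5%) called by DESeq2, among them dlc and dll1. All 4 Notch genes had both Otx2 libraries below both WI libraries in CPM, as had 26.6% of all genes. With the number set as a term, dlc kept a log2 change of −3.89 and dll1 had −2.29, neither called.

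With Irx3+Otx2 the values of dll1 were less even between libraries. The Irx3+Otx2 libraries had 20.5 and 6.54 CPM of dll1, against 85.0 and 57.2 CPM in WI (log2 change −2.39, SE 0.67, edgeR adjusted p = 0.190). The change was −3.44 without Irx3+Otx2 replicate 1, −1.78 without replicate 2 and −1.58 with the number set as a term. Set against Otx2 alone, at 4.28 and 3.71 CPM, both pair libraries were higher in dll1, with a log2 change of 1.76 and an unadjusted edgeR p of 0.0259 that did not survive adjustment. Libraries lay apart in this direction for 13.2% of genes. No gene was called by edgeR in Irx3+Otx2 against Otx2 (0.0%), with 668 (4.71%) at an unadjusted p under 0.05 and 24 called by DESeq2. Set against Irx3 alone, at 25.8 and 62.7 CPM, dlc in the pair was lower by a log2 change of −3.09 (SE 0.61, edgeR adjusted p = 0.0905). For dll1, at 23.9 and 114.5 CPM in Irx3, the log2 change was −2.35 (SE 0.67, edgeR adjusted p = 0.199). Libraries lay apart in this direction for 20.9% of genes. Within the first number set the log2 difference of dll1 was −0.22. Of 14176 genes 7 (0.0494%) were called by edgeR in that comparison, and none of them was one of the 4. DESeq2 called both dlc and dll1 there, among 338 genes (2.38%). The interaction of Irx3 and Otx2, the pair minus both single factors plus WI on the log2 scale, was 1.80 (SE 0.94) for dll1 and 0.66 (SE 0.81) for dlc, neither called. Without Irx3+Otx2 replicate 1 it was 0.75 for dll1, and without Irx3 replicate 2 it was 3.34. No gene was called for this interaction by edgeR (0.0%), with 253 (1.78%) at an unadjusted p under 0.05 and 7 called by DESeq2.

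Irx3 alone gave uneven values. For dll1 the Irx3 libraries had 23.9 and 114.5 CPM, on either side of the WI libraries with 85.0 and 57.2 CPM. For dlc they had 25.8 and 62.7 CPM, both below the 95.9 and 80.3 CPM of WI, where 8.72% of genes lay apart in this way (log2 change −0.99, SE 0.55, edgeR adjusted p = 1). No gene was called by edgeR in Irx3 against WI (0.0%), with 196 (1.38%) at an unadjusted p under 0.05 and 6 called by DESeq2. The injected irx3 itself spanned a wide range, between 199.9 and 1861.5 CPM in the libraries that received it.

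**Figure D2:**
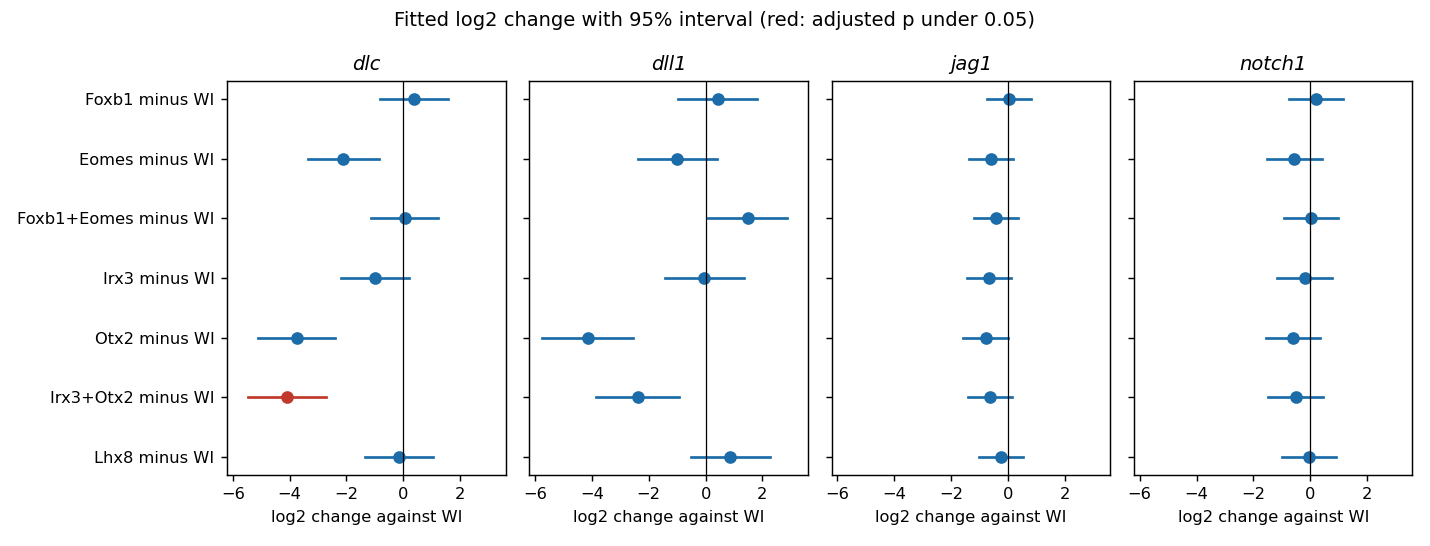
Fitted log2 change of each gene in each injected group against WI (points) with 95% intervals (lines). The single red point, dlc in Irx3+Otx2 at −4.09, is the only one with an adjusted p under 0.05, and the intervals of notch1 span 0 in all 7 groups.

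In Eomes caps dlc lay below WI, and in Foxb1+Eomes caps it spanned the WI values. The Eomes libraries had 11.5 and 29.2 CPM of dlc, against 95.9 and 80.3 CPM in WI (log2 change −2.10, SE 0.57, edgeR adjusted p = 0.111). For dll1 the Eomes libraries had 28.7 and 42.3 CPM, below the 85.0 and 57.2 CPM of WI. The 95% interval of its log2 change spanned 0, from −2.39 to 0.39 (SE 0.64, edgeR adjusted p = 0.426). In TPM dll1 overlapped, with 10.8 and 19.2 in Eomes and 18.8 and 14.3 in WI. With the number set as a term, dll1 in Eomes against WI changed sign, to 0.86. Of all genes 28 (0.198%) were called in Eomes against WI, 22 of them higher (0.155%) and 6 lower (0.0423%). An unadjusted p under 0.05 was reached by 2647 genes (18.7%), and 27.0% had both Eomes libraries below both WI libraries. The Foxb1+Eomes libraries had 73.2 and 109.1 CPM of dlc, on either side of WI (log2 change 0.05, 95% interval −1.14 to 1.24). Against Eomes alone, dlc in the pair was higher by a log2 change of 2.16 (SE 0.57) and dll1 by 2.48 (SE 0.67), each with an edgeR adjusted p of 0.220. In that comparison 6 genes (0.0423%) were called, and 20.7% of genes had both pair libraries above both Eomes libraries. DESeq2 called both ligands there, with adjusted p of 0.0221 for dlc and 0.0174 for dll1, among 319 genes (2.25%). With the number set as a term the change of dll1 was 0.52, and that of dlc was 2.22.

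The highest dll1 of the whole set was in Foxb1+Eomes. These libraries had 161.9 and 234.5 CPM, against 64.6 and 125.5 CPM in Foxb1 caps, 28.7 and 42.3 CPM in Eomes caps and 85.0 and 57.2 CPM in WI caps. Both pair libraries lay above every library of the 3 other groups. Of all genes, 14.5% had both pair libraries higher against WI alone, 13.5% against Foxb1 alone and 20.7% against Eomes alone. The share against all 3 groups together was not counted. The log2 change against WI was 1.48 (SE 0.65, unadjusted p 0.0398, edgeR adjusted p = 1), in a comparison with 49 genes called, all of them higher (0.346%), and 652 (4.6%) at an unadjusted p under 0.05. Against Foxb1 alone the log2 change of dll1 was 1.06 (SE 0.64, edgeR adjusted p = 1), in a comparison with 10 genes called, all of them higher (0.0705%), and 576 (4.06%) at an unadjusted p under 0.05. The pair also exceeded WI within each number set, by log2 differences of 0.93 and 2.03. The interaction of Foxb1 and Eomes was 2.06 (SE 0.91, unadjusted p 0.0414) for dll1 and 1.77 (SE 0.78, unadjusted p 0.0417) for dlc, both with an edgeR adjusted p of 0.606. No gene was called for it by edgeR (0.0%), with 1157 (8.16%) at an unadjusted p under 0.05 and 3 called by DESeq2. With the number set as a term that interaction for dll1 was 0.24, and the cause was not tested.

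In Foxb1 and Lhx8 caps none of the 4 genes passed the test against WI. Foxb1 libraries had 70.2 and 158.9 CPM of dlc and 64.6 and 125.5 CPM of dll1, which span or overlap the WI values, with log2 changes of 0.38 and 0.42. No gene was called in Foxb1 against WI by edgeR (0.0%), with 85 (0.6%) at an unadjusted p under 0.05 and 1 called by DESeq2. Lhx8 libraries had 139.0 and 121.3 CPM of dll1, both above the 85.0 and 57.2 CPM of WI, where 12.7% of genes lay apart in this direction (log2 change 0.87, 95% interval −0.51 to 2.26, edgeR adjusted p = 1). In Lhx8 1 gene (0.00705%) was called, none of the 4, and 213 (1.5%) had an unadjusted p under 0.05. Expression of dlc in Lhx8, at 82.3 and 76.6 CPM, overlapped WI.

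For jag1 no comparison passed the test. The Otx2 libraries had 30.3 and 41.8 CPM of jag1, the Irx3+Otx2 libraries 56.5 and 23.99 CPM, the Eomes libraries 38.0 and 44.5 CPM, and the WI libraries 53.2 and 71.0 CPM. The lowest adjusted p was in Otx2 against WI (log2 change −0.79, SE 0.36, edgeR adjusted p = 0.297). That direction rests on the scale: in the deposited TPM the Otx2 libraries had 9.82 and 17.5, against 11.03 and 16.7 in WI, which overlap, and with the number set as a term the change was 0.48. Elsewhere jag1 had 68.4 and 59.9 CPM in Foxb1, 45.8 and 48.1 CPM in Foxb1+Eomes, 38.5 and 40.1 CPM in Irx3, and 54.4 and 49.9 CPM in Lhx8. Foxb1 and Lhx8 overlapped WI. Irx3 and Foxb1+Eomes lay below both WI libraries, as in 8.72% and 12.3% of all genes. In Irx3 the log2 change was −0.66 (SE 0.36, unadjusted edgeR p 0.0895). Its TPM was also below WI, at 8.04 and 10.7, and log2 differences within the first and second number sets were −0.47 and −0.83. Ordered by mean CPM, only Foxb1+Eomes stood apart from both of its neighbours, Lhx8 above it and Eomes below it.

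The receptor gene notch1 was the most abundant of the 4 in CPM and in TPM medians, and passed no test. It had 328 and 357 CPM in Otx2, 444 and 283 CPM in Irx3+Otx2, 318 and 385 CPM in Eomes, and 565 and 471 CPM in WI. Each of these groups lay below WI in CPM, as did 26.6% of all genes in Otx2, 20.8% in Irx3+Otx2 and 27.0% in Eomes. The log2 changes of notch1 there lay between −0.51 and −0.60, with intervals that span 0. In TPM these groups did not lie below WI, since Otx2 had 40.6 and 57.2 and Eomes 43.1 and 62.8, against 44.3 and 42.2 in WI. Within Foxb1, Foxb1+Eomes and Irx3 the replicates differed by more than any of these shifts, for example 723 and 337 CPM in Foxb1+Eomes and 601 and 302 CPM in Irx3. Groups next to each other in the order of mean notch1 CPM all overlapped.

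The makeup of the ligand transcripts differed between caps. As a share of the summed TPM of the 3 ligand genes, jag1 made up 77.0% and 73.8% in Otx2 and 67.4% and 63.3% in Irx3+Otx2, against 20.6% and 31.2% in WI. In Foxb1+Eomes dll1 made up 56.4% and 58.3%, and in Lhx8 49.2% and 47.8%, against 35.0% and 26.7% in WI. The largest share in WI was that of dlc, with 44.4% and 42.1%. The TPM of notch1 per summed ligand TPM was 3.18 and 2.41 in Otx2 and 2.01 and 2.86 in Irx3+Otx2, against 0.827 and 0.790 in WI. In Foxb1+Eomes it was 0.896 and 0.302. These shares compare transcripts per length in each library and were not tested.

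**Figure D3:**
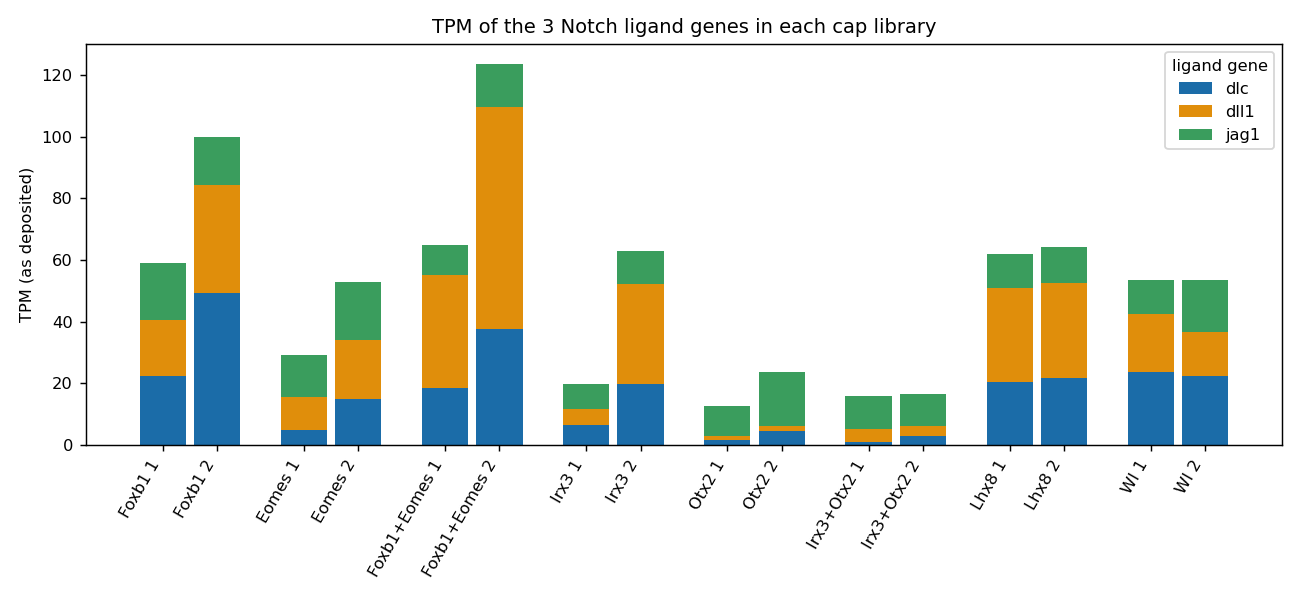
Deposited TPM of dlc, dll1 and jag1, stacked, in each of the 16 libraries. The stacks of Otx2 and Irx3+Otx2 reach 12.8 to 23.7 TPM and are mostly jag1, against 53.6 and 53.4 TPM in WI, and the tallest stack, Foxb1+Eomes 2 at 123.4 TPM, is mostly dll1.

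The levels of dlc and dll1 ran close together over the libraries. Pearson's r of their log2 CPM over the 16 libraries was 0.899 (Spearman's rho 0.862), and for the other pairs of the 4 genes r lay between 0.469 and 0.646. These are descriptions, since the libraries share groups and number sets. The ratio of dll1 to dlc in TPM nevertheless differed: it was 1.97 and 1.92 in Foxb1+Eomes and 1.502 and 1.41 in Lhx8, against 0.790 and 0.636 in WI. In Irx3+Otx2 it was 4.05 and 1.004, in Eomes 2.22 and 1.29, and in Irx3 0.825 and 1.63. In Foxb1 it was 0.821 and 0.705, and in Otx2 1.01 and 0.364.

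**Figure D4:**
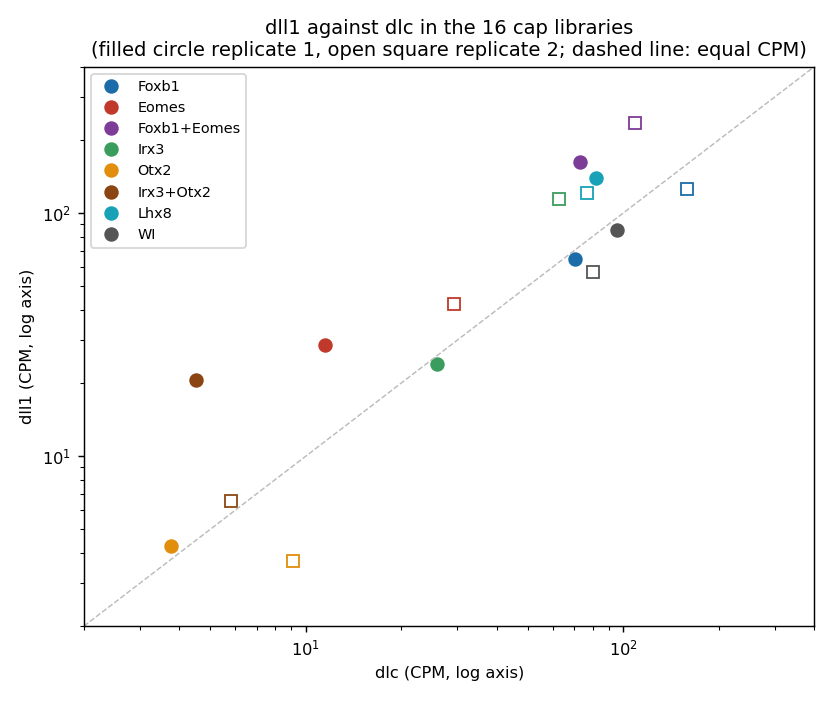
Normalised CPM of dll1 against dlc in the 16 libraries (both axes log), coloured by group, with a dashed line where both are equal. The Foxb1+Eomes libraries lie above the line at 162 and 234 CPM of dll1, and the Otx2 libraries lie in the lower left corner with both genes under 10 CPM.

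Among 8180 genes with a symbol and enough counts, those most like dlc over the 16 libraries were trex2, a DNA exonuclease gene (r = 0.956), the caudal-type homeobox gene cdx4 (0.921) and daw1, which serves the assembly of ciliary dyneins (0.909). Most like dll1 were the caudal-type homeobox gene cdx1 (0.917), then dlc, then ribc1 (0.891). Mean cdx4 was 12.4 CPM in Otx2 and 5.599 CPM in Irx3+Otx2, against 48.7 CPM in WI, and 108.4 CPM in Foxb1+Eomes. For jag1 the nearest genes were the cyclin gene ccnd2 (0.836), gpr135 (0.820) and the homeobox gene meis3 (0.791), and for notch1 ralb (0.939), ythdf1 (0.937) and gon4l (0.933).

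Levels of tissue markers differed between the groups too, and their part in the ligand values was not tested. Summed over 16 ectoderm genes, the Otx2 libraries had 3779 and 2160 CPM, the Irx3+Otx2 libraries 2832 and 2339 CPM, the Eomes libraries 3542 and 1893 CPM, and the WI libraries 11849 and 7568 CPM, and in each of the 3 comparisons all 16 genes had a log2 change below 0. Of these 16, edgeR called 0 in Otx2 and 1, foxi4.2, in Irx3+Otx2 and in Eomes, where 0.0423% of all genes were called lower in each. At an unadjusted p under 0.05 there were 12 in Otx2, 12 in Irx3+Otx2 and 13 in Eomes, beside 16.6%, 12.8% and 18.7% of all genes. DESeq2 called 8, 10 and 11 of them, beside 3.5%, 2.06% and 6.07% of all genes. In Foxb1+Eomes all 16 also had a log2 change below 0, with sums of 2776 and 6817 CPM. The median log2 change was −1.21 there, against −2.34 in Otx2, −2.65 in Irx3+Otx2 and −2.68 in Eomes. In Foxb1+Eomes 2 of the 16 were lower at an unadjusted p under 0.05, beside 4.6% of all genes, and edgeR called 0. Over 12 neural plate genes the sums were 2731 and 2717 CPM in Otx2 and 4672 and 3361 CPM in Irx3+Otx2, against 1289 and 1962 CPM in WI, with otx2 among these genes. Over 15 organizer genes, otx2 again included, the sums were 777 and 556 CPM in Otx2 and 982 and 1773 CPM in Irx3+Otx2. In WI they were 68.3 and 85.1 CPM. To both the neural plate and the organizer sums, the injected otx2 gave 606 and 419 CPM in Otx2. It gave 829 and 1548 CPM in Irx3+Otx2, against 31.8 and 34.3 CPM in WI. Most of the organizer sums in Otx2 and Irx3+Otx2 was thus otx2 itself. Of the 11 organizer genes tested, 8 were higher at an unadjusted p under 0.05 in each, beside 16.6% and 12.8% of all genes, and edgeR called 0 in Otx2 and 1, chrd, in Irx3+Otx2. The injected otx2 was itself 1 of the 11. Mesoderm sums over 15 genes were 3161 and 1924 CPM in Foxb1+Eomes, 2051 and 1299 CPM in Eomes and 372 and 375 CPM in WI. To these the injected eomes gave 769 and 446 CPM in Foxb1+Eomes and 1566 and 612 CPM in Eomes. In WI it gave 6.69 and 8.47 CPM. The mesoderm genes msgn1 and fgf4 were at 0 in both WI libraries. Of the 15 genes, all tested, edgeR called 6 higher in Foxb1+Eomes (vegt, myf5, eomes, fgf8, foxc1 and mix1) and 2 in Eomes (eomes and mix1), where 0.346% and 0.155% of all genes were called higher, and eomes was itself injected. Sums without the injected otx2 or eomes were not taken.

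The rest of the pathway showed no edgeR call, while DESeq2 called a few genes. Of 52 further ligand, receptor, processing, glycosylation, trafficking, nuclear and target genes in the tables, 46 were tested and edgeR called 0 in each of the 13 bulk comparisons. At an unadjusted p under 0.05 there were 2 higher and 5 lower in Otx2 against WI and 1 higher and 6 lower in Irx3+Otx2, where 16.6% and 12.8% of all genes reached it. DESeq2 called hes4 in Otx2 and hes7.1 in Irx3+Otx2, and hes4, lfng and mib2 in Eomes, where it called 3.5%, 2.06% and 6.07% of all genes. In Foxb1+Eomes against Eomes 11 were higher and 4 lower at an unadjusted p under 0.05, beside 15.4% of all genes, and DESeq2 called hes7.2 and itch. Median log2 changes of the 46 were −0.11 in Otx2, −0.05 in Irx3+Otx2 and −0.13 in Eomes, beside 0.01, 0.07 and 0.01 over all genes.

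Among the genes that cut and modify the receptor edgeR called 0. The protease gene adam10, which sheds the receptor's outer part, had 204 and 248 CPM in Otx2, against 210 and 249 CPM in WI (log2 change −0.02). Changes against WI of adam10 lay between −0.19 and 0.20 in the 7 groups. For pofut1, which adds fucose to Notch, they lay between −1.02 and −0.15, for numb, an inhibitor of Notch, between −0.09 and 0.57, and for the corepressor component hdac1 between −0.34 and 0.18, none called. The second receptor gene in the tables, notch2, was also not called, with log2 changes between −0.52 and 0.13.

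The hes and related target genes were mixed. Over 14 targets tested, the median log2 change against WI was −1.57 in Otx2 (12 below 0), −0.92 in Eomes (9 below 0) and −0.75 in Irx3+Otx2 (10 below 0), but 0.47 in Foxb1+Eomes (10 above 0) and 0.50 in Lhx8 (11 above 0), and edgeR called 0 of the 14 in each. In Irx3, where dlc lay below WI, the median was 0.45 (12 above 0), and in Foxb1 it was 0.06 (8 above 0). In both, edgeR called 0, and 0 reached an unadjusted p under 0.05, beside 1.38% and 0.6% of all genes. Over all genes these medians lay between 0.0 and 0.07. At an unadjusted p under 0.05, 3 were lower in Otx2, 3 in Eomes and 5 in Irx3+Otx2, where 1 was higher. Of all genes, 16.6%, 18.7% and 12.8% reached it. In Foxb1+Eomes 4 were higher and in Lhx8 2, beside 4.6% and 1.5%. Foxb1+Eomes against Eomes had 8 higher and 0 lower (median 1.89), beside 15.4%. Irx3+Otx2 against Irx3 had 0 higher and 8 lower (median −1.19), beside 14.6%. The most abundant, hes4, had 42.4 and 52.6 CPM in Otx2, 92.9 and 33.4 CPM in Irx3+Otx2 and 63.5 and 48.9 CPM in Eomes, against 166 and 223 CPM in WI. All of these libraries lay below both WI libraries, as in 26.6%, 20.8% and 27.0% of all genes. Their log2 changes were −2.03, −1.62 and −1.79, with edgeR adjusted p of 0.158, 0.190 and 0.106. Both libraries also lay below WI in Irx3 (156 and 153 CPM), Lhx8 (85.4 and 149 CPM) and Foxb1+Eomes (115 and 156 CPM). That held for 8.72%, 10.3% and 12.3% of all genes there. The Foxb1 libraries overlapped WI, with 128 and 231 CPM. The gene hes7.1 was not called by edgeR either, with 229 and 339 CPM in Irx3+Otx2 and 67.9 and 61.0 CPM in Otx2, against 18.4 and 29.1 CPM in WI (log2 change 3.57 in Irx3+Otx2, edgeR adjusted p = 0.188). In the Irx3 libraries hes7.1 was 175 and 16.4 CPM.

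Other targets were low or scattered. The gene hes9.1 had 19.3 and 20.3 CPM in Foxb1+Eomes, against 3.34 and 3.098 CPM in WI (log2 change 2.62, edgeR adjusted p = 0.555). The gene hes7.2 had 67.4 and 45.8 CPM in Lhx8 and 19.7 and 56.1 CPM in Foxb1, against 11.4 and 17.1 CPM in WI (log2 change 1.98 in Lhx8, edgeR adjusted p = 1). The gene hes8 was at 0 in both Irx3+Otx2 libraries and at 4.18 and 0.207 CPM in the WI libraries. Reads of near-identical hes copies may be split between them, so single copies are uncertain.

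Of 10 proneural genes tested, which drive or mark neuron formation, edgeR called 0 against WI in all 7 groups. At an unadjusted p under 0.05 there were 1 higher and 3 lower in Otx2, beside 16.6% of all genes, and DESeq2 called myt1 and elavl3 there, beside 3.5%. DESeq2 called the same pair in Eomes, beside 6.07%. In Irx3 9 of the 10 had a log2 change below 0 (median −0.79), 2 of them at an unadjusted p under 0.05, beside 1.38% of all genes. Below 0 were also 8 in Foxb1+Eomes (median −1.20), 8 in Irx3+Otx2 (−0.51), 7 in Eomes (−1.13), 6 in Otx2 (−0.50) and 6 in Lhx8 (−0.08). In Foxb1 2 were below 0 (median 0.13). The neuronal marker elavl3 had 34.0 and 17.8 CPM in Otx2 and 37.0 and 7.06 CPM in Eomes, against 192 and 143 CPM in WI, with log2 changes of −2.69 and −2.93 (edgeR adjusted p = 0.177 and 0.111). The proneural gene neurog3 had 5.64 and 5.98 CPM in Otx2, 0 in both Lhx8 libraries, and 0.836 and 1.86 CPM in WI. The gene neurod1 was at 0 in both Irx3 libraries and at 0.557 and 0.207 CPM in the WI libraries.

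Of 11 genes of multiciliated cells and ionocytes, edgeR called 0 against WI in all 7 groups. In Irx3+Otx2 there were 1 higher and 6 lower at an unadjusted p under 0.05, beside 12.8% of all genes, and DESeq2 called foxj1, myb and foxi1 there, beside 2.06%. DESeq2 called myb in Otx2 and in Eomes as well, and against Irx3 alone it called 6 in the pair (foxj1, myb, rfx2, foxi1, foxn4 and dmrt2), beside 2.38% of all genes. The most abundant of the list, foxi2, had 234 and 220 CPM in Otx2 and 258 and 205 CPM in Irx3+Otx2, against 122 and 159 CPM in WI (log2 changes 0.69 and 0.72, not called). The log2 change of dmrt2 was 2.43 in Eomes and −1.37 in Foxb1, not called.

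In the single explant cells, reads of the Delta-type genes came mostly from BL cells and all reads of jag1 from AC cells. The libraries held 2248931 reads in genes for BL 1, 755591 for BL 2, 3002901 for AC 1 and 1123173 for AC 2, with medians per cell of 51111, 26325, 96589 and 34796 reads. The shallowest cell of each had 75, 322, 25 and 33 reads, and 28 of the 100 cells had under 20000. There are no molecular identifiers, so reads are not independent molecules. The exact intervals on shares of cells pool both libraries and take each cell as independent. They cover the sampling of cells only and leave out the spread between libraries. For the edgeR test reads were summed per library, so cells were not replicates there. No 2 cells had identical counts.

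Reads of dlc numbered 99 and 23 in the BL libraries, against 0 and 3 in the AC libraries. At least 1 read was found in 11 and 9 of 25 BL cells (40.0% of 50, exact 95% interval 26.4% to 54.8%), against 0 and 2 of 25 AC cells (4.0%, 0.488% to 13.7%). A single cell gave 54.5% of the dlc reads of BL 1. After thinning each cell to 20000 reads, dlc was found in 8 of 34 BL cells and 1 of 38 AC cells. In those deeper cells without thinning it was found in 17 and 2. The sums of the 4 libraries gave a log2 change of 5.15 (SE 1.67, unadjusted p 0.0166), which the edgeR test did not call (adjusted p = 0.773). Leaving out AC 1 gave 3.80 and leaving out AC 2 gave 9.36, and weighting each cell equally gave 3.50. No gene of 8898 was called by edgeR in BL against AC (0.0%), with 483 at an unadjusted p under 0.05 (5.43%) and 114 (1.28%) called by DESeq2, none of the 4.

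Reads of dll1 numbered 101 and 35 in the BL libraries, against 21 and 8 in the AC libraries. They came from 7 and 4 of 25 BL cells, against 3 and 2 of 25 AC cells, and 1 cell gave 85.7% of the AC 1 reads. After thinning dll1 was found in 9 of 34 BL cells and 4 of 38 AC cells. The log2 change was 2.85 (SE 0.87, unadjusted p 0.0125, edgeR adjusted p = 0.739). Weighting each cell equally gave 1.31.

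No read of jag1 was found in the 50 BL cells, shallow cells included. In AC 1 there were 64 reads from 3 cells and in AC 2 3 reads from 2 cells. The exact 95% interval allows a share of BL cells with a read of up to 7.11%. It sets no limit on the share expressing jag1. Set against a floor of 3 reads over the BL cells, jag1 CPM would be 16.3-fold lower in BL than in AC. That floor treats reads as independent, which they are not, so the fold is no firm bound. By cells, a read was found in 0 of 50 in BL and 5 of 50 in AC (10.0%, exact 95% interval 3.33% to 21.8%). The fold also rests on AC 1, which gave 64 of the 67 reads: AC 2 alone had 2.67 CPM, beside a floor of 0.998 CPM in BL. A single cell gave 53.7% of the AC reads, and jag1 was too low to enter the edgeR test.

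Of cells with at least 20000 reads, notch1 was found in 25 of 34 in BL and 25 of 38 in AC, with 8 of 16 in AC 2. Reads numbered 545 and 143 in BL and 355 and 91 in AC, from 17 and 13 of 25 BL cells and 18 and 13 of 25 AC cells. The sums in CPM were 242 and 189 in BL, against 118 and 81.0 in AC, so that the libraries did not overlap, as in 13.2% of the genes tested in this direction (23.1% in the other). The log2 change was 1.27 (SE 0.42, unadjusted p 0.0182, edgeR adjusted p = 0.796). After thinning notch1 was found in 23 of 34 BL cells and 20 of 38 AC cells.

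**Figure D5:**
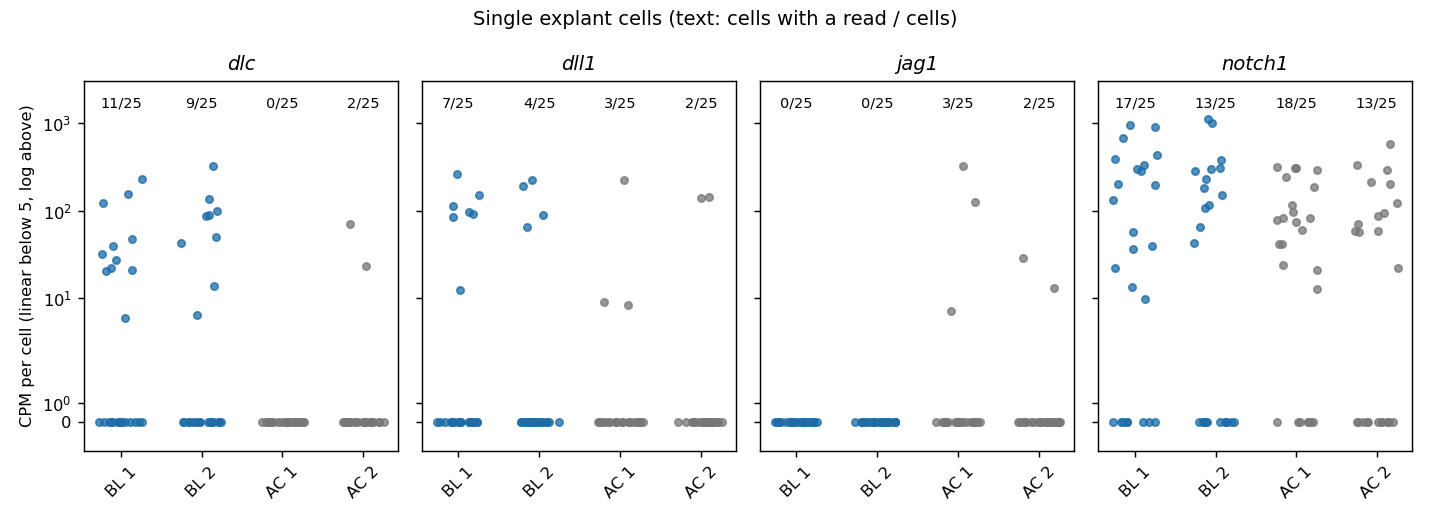
CPM in each single cell (linear below 5, log above) for the 4 genes in the libraries BL 1, BL 2, AC 1 and AC 2, with the number of cells that have a read out of 25 above each column. BL cells with dlc number 11 and 9, against 0 and 2 in AC, and all jag1 reads lie in 5 AC cells.

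Ligand and receptor reads were also counted together in each cell. Any of the 3 ligands was found in 25 of 50 BL cells, 18 of them with notch1, and in 11 of 50 AC cells, 7 of them with notch1. Over all cells notch1 was found in 30 of 50 in BL and 31 of 50 in AC, and in AC 2 it was found in 2 of the 5 cells with a ligand. Reads of both dlc and dll1 were found in 6 cells of BL and 1 of AC. Depth bears on these counts: the median depth of BL cells with a notch1 read was 48614 reads, against 14941 for those without.

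BL and AC also differed in tissue markers, whose part in the ligand values was not tested. Summed over 15 mesoderm genes, BL had 2886 and 3603 CPM, against 347 and 139 CPM in AC, and over 15 organizer genes 2284 and 8543 CPM in BL, against 208 and 471 CPM in AC. Over 16 ectoderm genes the sums overlapped, with 3956 and 5332 CPM in BL and 4371 and 10678 CPM in AC. Gene by gene, 10 of the 12 ectoderm genes tested had a log2 change below 0 (median −2.85), 9 of them at an unadjusted p under 0.05. At that level 1 was higher, and 5.43% of all genes reached it. EdgeR called 0 and DESeq2 called 4 (tfap2a, tfap2c, grhl1 and krt), beside 1.28% of all genes. Of 37 further pathway genes tested, edgeR called 0. At an unadjusted p under 0.05, 3 were higher and 3 lower, beside 5.43% of all genes. DESeq2 called the targets hes2, hes7.2 and hes8, beside 1.28% of all genes.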

How the data were processed

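Bulk RNA-seq of 16 animal cap libraries and read counts of 100 single cells in 4 libraries were used. The authors deposited estimated counts and TPM per target for the bulk libraries, per the file headers; the columns are those that kallisto writes, while the submitters' processing notes name STAR 2.5.0. Libraries were depleted of ribosomal RNA and read as pairs, per the labels. The single-cell tables hold raw counts per gene and cell as deposited, from a modified Tang protocol, per the labels' protocols. Reads outside genes made up 23.6% to 32.2% of a library and reads not aligned 37.7% to 48.7%; both were left out.

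Estimated counts were rounded, since 16.6% were not whole (tolerance 1e-06); all values of the 4 genes were whole. All 16 libraries entered 1 edgeR 4.0.16 quasi-likelihood fit in R 4.3.3 (filterByExpr, TMM, robust, group as the only term), with 14176 genes tested in 13 contrasts and a call at an adjusted p under 0.05. The SE is the log2 change over the square root of F. CPM are scaled by TMM. Single-cell reads were summed per library and tested likewise. Scripts were tested on simulated counts. The bulk counts do not state strand, so overlapping antisense transcripts cannot be told apart.

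The 4 genes, the pathway and marker lists and the tests were chosen with earlier results of these data known. Named list genes are those called, the most abundant of each class, and the highest and lowest log2 change of the lists in each group against WI, of which 1 is not reported here; lfng, mib2, itch, myt1, notch2, foxj1, myb, foxi1, rfx2, foxn4, tfap2a, tfap2c, grhl1, krt and hes2 were named after their values were seen. Alternatives were DESeq2 1.42.0, RLE factors, no filter, a replicate block, the 3 sets of library numbers as a term, only the libraries compared, each library left out and, for cells, thinning, at least 5 reads and equal weights; counting in cells of at least 20000 reads without thinning was added after seeing the data. Peak and fragment files were not used here, no genome build being named, and no sequences are given.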

Additional observations from a re-analysis of the deposited data

How the results depend on the processing

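The 4 genes in 13 bulk comparisons and 3 of them in BL against AC were recomputed under each alternative. Without leaving out libraries, 291 of 327 values kept their direction and their side of the threshold, 21 came to pass it, 1 ceased to and 14 changed sign. With each library left out, 219 of 252 did, 4 ceased to pass and 29 changed sign. The cause was not tested. Few reads of dlc and dll1 in Otx2 and Irx3+Otx2 caps, and 2 libraries a group, limit their precision. The values below are log2 changes.

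With DESeq2, dlc was also called at −2.10 in Eomes and −3.76 in Otx2 against WI, at 2.16 in Foxb1+Eomes against Eomes and at −3.06 in Irx3+Otx2 against Irx3, and dll1 at −4.16 in Otx2 and −2.35 in Irx3+Otx2 against WI, at 2.48 in Foxb1+Eomes against Eomes and at −2.30 in Irx3+Otx2 against Irx3. In these comparisons DESeq2 called between 2.06% (Irx3+Otx2 against WI) and 6.07% (Eomes against WI) of all genes. Without the filter on low counts, edgeR called dlc at −2.08 in Eomes and −3.73 in Otx2 against WI, at 2.11 in Foxb1+Eomes against Eomes and at −3.05 in Irx3+Otx2 against Irx3. It then called dll1 at 1.45 in Foxb1+Eomes, −4.13 in Otx2 and −2.38 in Irx3+Otx2 against WI, at 2.43 in Foxb1+Eomes against Eomes, at −2.30 in Irx3+Otx2 against Irx3 and at 1.75 in Irx3+Otx2 against Otx2, and notch1 in Foxb1+Eomes against WI was −0.0109. Fitting only the libraries compared, dll1 in Otx2 against WI was called at −4.16.

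With the 3 sets of library numbers as a term, dlc in Irx3+Otx2 against WI was −4.06 and no longer called. Signs then changed against WI for dll1 (0.86) and jag1 (0.67) in Eomes, dlc (−0.0222) and notch1 (−0.0265) in Foxb1+Eomes, and jag1 (0.48) in Otx2. They also changed for jag1 in Foxb1+Eomes against Eomes (−1.07), for jag1 (−0.59) and notch1 (−0.27) in Irx3+Otx2 against Otx2, for jag1 (−1.12) and notch1 (−0.18) in the interaction of Foxb1 and Eomes, and for notch1 in that of Irx3 and Otx2 (−0.0235).

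Same-numbered libraries deviated together in some pairs of groups and not in others. Over 28 pairs of groups, their deviations correlated with r between −0.24 and 0.73 (median 0.048), 12 of them over 0.1. The highest values were for Eomes with Otx2 (0.73), all in the third number set, and Foxb1+Eomes with Irx3 (0.49). With the replicate block, dlc was called at −3.92 in Otx2 against WI and at −2.996 in Irx3+Otx2 against Irx3, and remained called in Irx3+Otx2 against WI at −4.16. In Foxb1+Eomes against WI, dlc was then −0.0453 and notch1 −0.00784. In BL against AC the block gave 5.62 for dlc, 2.84 for dll1 and 1.28 for notch1, and 80 genes called in all.

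With each library left out in turn, dlc in Irx3+Otx2 against WI lay between −4.27 and −3.92, not called. Ranges that spanned 0 were, in Foxb1 against WI, −0.33 to 0.88 for dlc, −0.14 to 0.85 for dll1, −0.15 to 0.27 for jag1 and −0.24 to 0.57 for notch1. In Foxb1+Eomes against Foxb1 they were −0.86 to 0.38 for dlc and −0.82 to 0.28 for notch1, against Eomes −0.0617 to 1.04 for notch1, and against WI −0.27 to 0.31 for dlc and −0.62 to 0.48 for notch1. The interaction of Foxb1 and Eomes spanned −0.0842 to 0.34 for jag1 and −0.26 to 0.84 for notch1, and that of Irx3 and Otx2 −0.12 to 0.86 for notch1. In Irx3 against WI, dll1 spanned −1.57 to 0.69 and notch1 −0.77 to 0.21. In Irx3+Otx2 against Irx3, jag1 spanned −0.71 to 0.59 and notch1 −0.72 to 0.26. Against Otx2, dlc spanned −0.83 to 0.46, jag1 −0.59 to 0.67 and notch1 −0.27 to 0.40. In Lhx8 against WI, notch1 spanned −0.31 to 0.20. The interaction of Irx3 and Otx2 lay between 0.75 and 3.34 for dll1 and between 0.16 and 1.51 for dlc, dll1 in Irx3+Otx2 against WI between −3.44 and −1.78, and dlc in BL against AC between 3.80 and 9.36.

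Counts of genes called over the whole tables moved more. Against WI, DESeq2 called 1 in Foxb1, 861 in Eomes, 112 in Foxb1+Eomes, 6 in Irx3, 496 in Otx2, 292 in Irx3+Otx2 and 13 in Lhx8, where edgeR had called 0, 28, 49, 0, 0, 18 and 1. Without the filter edgeR called 15, 1433, 302, 62, 1096, 853 and 95. For Foxb1+Eomes, DESeq2 called 76 against Foxb1 and 319 against Eomes, where edgeR had called 10 and 6, and without the filter 206 and 1040. For Irx3+Otx2, DESeq2 called 338 against Irx3 and 24 against Otx2, where edgeR had called 7 and 0, and without the filter 1105 and 415. For the interactions, DESeq2 called 3 and 7, where edgeR had called 0, and without the filter 318 and 162. In BL against AC, DESeq2 called 114, edgeR without the filter 146, and edgeR with each library left out between 5 and 94, where it had called 0. With the number sets as a term edgeR called 0 in Eomes and 7 in Irx3+Otx2 against WI, and 22 against Foxb1 and 0 against Eomes in Foxb1+Eomes. Fitting only the libraries compared, it called 1 in Foxb1, 96 in Eomes, 14 in Otx2, 30 in Irx3+Otx2 and 0 in Lhx8 against WI, 0 in Foxb1+Eomes against Eomes and 34 in Irx3+Otx2 against Irx3. With the replicate block it called 1 in Otx2 against WI, 23 in Foxb1+Eomes against Foxb1 and 13 in Irx3+Otx2 against Irx3. With each library left out, calls against WI lay between 0 and 8 in Eomes, 0 and 42 in Foxb1+Eomes and 0 and 7 in Irx3+Otx2.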
